A study of Mus musculus with 12 samples.

Results

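The 8 genes described here, *Hk1*, *Hk2*, *Pkm*, *Aldoa*, *Pklr*, *Fbp1*, *Pck1* and *G6pc*, encode enzymes of glycolysis and gluconeogenesis that differ between the adult liver and fetal or tumour tissue. They were taken from the deposited table by their symbols. All 8 were found among its 24411 genes, and all 8 were among the 13922 genes tested. Poly(A) RNA of whole liver was compared between 3 genotypes, with 3 cont. mice (*Atg7* flox/flox, without Cre) and 3 *Atg7*-KO mice (the same floxed alleles with Alb-*Cre*). The remaining 3 mice, labelled *Atg7*-KO;*p62*T352A and called compound mutant here, carry the floxed *Atg7* alleles, Alb-*Cre* and in addition 2 copies of the *p62* T352A allele. All mice were 3 months old, on a C57BL/6 background and fed freely, and all are homozygous for the floxed *Atg7* gene. Alb-*Cre* is expressed in hepatocytes, so the other liver cells keep *Atg7*, whereas the T352A exchange was put into *Sqstm1*, the gene of p62 itself, and is present in every cell. KEAP1, the adaptor that directs NRF2 to degradation, is held in p62 bodies, and the T352A form of p62 is used as the one that does not retain it. The comparison asks how the isoforms stand after loss of autophagy in hepatocytes, and how they stand when KEAP1 is no longer retained. A set of 3 mice with the *p62* T352A allele and no Alb-*Cre* was not analysed here.

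Hexokinases phosphorylate glucose in the first step of glycolysis. The high-affinity enzymes HK1 and HK2 prevail in fetal liver, in most tissues other than adult liver and in tumours. Aldolase A (*Aldoa*) is the fetal and muscle aldolase that returns in liver tumours. Pyruvate kinase closes glycolysis, as the liver and red cell enzyme from *Pklr* or the muscle, fetal and tumour enzymes from *Pkm*. Gluconeogenesis bypasses the irreversible steps with PCK1 (phosphoenolpyruvate carboxykinase), FBP1 (fructose-1,6-bisphosphatase) and G6PC (the catalytic subunit of glucose-6-phosphatase), which releases free glucose.

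In the GENCODE annotation of GRCm38, the build of the authors' mapping (mm10), the genes for high-affinity hexokinases lie at chr10:62268855-62379908 on the minus strand (*Hk1*) and at chr6:82725025-82774454 on the minus strand (*Hk2*). *Pkm* lies at chr9:59656368-59679375 on the plus strand, and *Aldoa* at chr7:126795234-126800751 on the minus strand. Of the adult forms, *Pklr* lies at chr3:89136142-89146784, *Pck1* at chr2:173153048-173159273 and *G6pc* at chr11:101367561-101377903, all on the plus strand, and *Fbp1* at chr13:62864753-62888282 on the minus strand. The counts are sums over whole genes. The M1 and M2 forms of *Pkm*, and the liver and red cell forms of *Pklr*, were therefore not separated. Of the 75-base stretches of *Pkm* transcripts, 17.8% also occur in a transcript of another gene, and 0.54% of those of *Aldoa* do. No such stretch was found for the other 6 genes.

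The promoters below show the kinds of start region that these genes have. They are given 5′ to 3′ along the gene, from RefSeq sequence of GRCm38.p6, and they begin 250 bases before the RefSeq start of transcription and end at that start or, where it comes earlier, 20 bases into the first GENCODE exon. Capitals mark the motifs searched for on both strands: a TATA box (TATAAA), a GC box (GGGCGG), a cAMP response element of the kind known from *Pck1* (TTACGTNA), the core of the NRF2-binding antioxidant response element (TGACNNNGC) and the carbohydrate response element of the liver *Pklr* promoter, which holds a pair of inverted E-box-like elements. *Pck1* and *G6pc* are shown because they fell in *Atg7*-KO livers, *Hk2* because it rose, and *Pklr* as an adult form that did not pass the test.

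Pck1, chr2:173152823-173153067, plus strand: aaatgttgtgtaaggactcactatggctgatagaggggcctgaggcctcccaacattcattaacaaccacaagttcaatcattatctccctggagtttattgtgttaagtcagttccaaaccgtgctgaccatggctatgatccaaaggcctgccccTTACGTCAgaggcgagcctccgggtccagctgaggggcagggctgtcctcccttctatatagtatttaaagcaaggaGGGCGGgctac
G6pc, chr11:101367466-101367580, plus strand: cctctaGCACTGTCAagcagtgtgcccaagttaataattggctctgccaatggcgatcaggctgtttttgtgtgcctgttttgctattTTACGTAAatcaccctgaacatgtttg
Pklr, chr3:89136373-89136591, plus strand, liver start: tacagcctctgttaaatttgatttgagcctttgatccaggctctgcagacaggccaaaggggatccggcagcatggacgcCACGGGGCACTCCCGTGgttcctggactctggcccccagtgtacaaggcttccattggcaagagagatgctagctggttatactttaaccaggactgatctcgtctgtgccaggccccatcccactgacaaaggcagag
Hk2, chr6:82774455-82774704, minus strand: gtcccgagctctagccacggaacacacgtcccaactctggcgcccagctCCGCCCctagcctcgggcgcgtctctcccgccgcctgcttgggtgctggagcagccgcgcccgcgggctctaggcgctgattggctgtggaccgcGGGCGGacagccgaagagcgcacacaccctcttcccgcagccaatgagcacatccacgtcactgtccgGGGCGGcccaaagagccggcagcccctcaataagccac

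The TTACGTNA motif occurred in the windows of *Pck1* and *G6pc* and of no other member. The pattern follows the element of *Pck1*, so its match there was given beforehand. Other forms of the cAMP response element were not searched for. Of all 32851 RefSeq promoter windows of 300 bases, 0.898% held the motif. The carbohydrate response element, in the form searched for, was found in 1 of these windows, that of *Pklr*. This form was that of the liver *Pklr* promoter, with only the bases between its inverted elements left free. Its match in *Pklr* was therefore also given beforehand. Looser forms were not searched for, so the search cannot show whether other promoters hold such an element. The TATAAA motif was present in the *G6pc* and liver *Pklr* windows and in 13.6% of all windows, and GGGCGG in those of *Hk2*, *Pkm*, *Aldoa*, *Pck1* and *Fbp1* and in 35.7% of all windows. TGACNNNGC was found in at least 1 window of *G6pc*, *Fbp1*, *Hk1*, *Aldoa* and *Pklr*, and 12.4% of all single windows held it. Some members, such as *Aldoa* and *Pklr*, have more than 1 window. For all these motifs, genes with a match and shares of windows are therefore unlike units, and an enrichment was not tested. The 250 bases before the start held 69.6% G and C in *Hk2* and 43.2% in *G6pc*, with a median of 52.4% over all windows. These matches describe the letters of the windows, and no binding was measured.

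Before the isoforms, the libraries were checked. Totals lay between 9671073 and 23285134 counts per mouse. The level of a gene is given below as CPM, counts scaled to a common library size with TMM factors, and a gene was called at a Benjamini-Hochberg adjusted p under 0.05 in edgeR's quasi-likelihood test, fitted to all 13922 genes, together with a fold change over 1.5. *Atg7*, the targeted gene, was 44.2 to 55.4 CPM in cont., 9.57 to 12.0 CPM in *Atg7*-KO and 27.4 to 29.7 CPM in compound mutant mice. Against cont., it stood at −2.20 ± 0.17 (log2 fold change ± SE) in *Atg7*-KO (adjusted p = 2.55e-05) and at −0.75 ± 0.16 in compound mutant livers (adjusted p = 0.0206). It was 1.45 ± 0.17 higher in compound mutant than in *Atg7*-KO livers (adjusted p = 0.000164). These counts cover the whole gene, including sequence outside the part that Cre removes. That holds for both genotypes with Alb-*Cre* alike, and the cause of the difference between them, such as the extent of recombination, was not tested. On immunoblots the study found ATG7 protein nearly undetectable in both. The *Atg7* call in compound mutant against cont. livers was lost when any 1 compound mutant mouse was left out (adjusted p 0.0524 to 0.07 in edgeR). *Sqstm1* was 314 to 505 CPM in cont., 871 to 959.7 CPM in *Atg7*-KO and 497 to 626 CPM in compound mutant livers. The cont. mouse 1 stood apart from the other cont. mice, with 293 CPM of *Mlxipl* against 1534 and 1918 CPM. *Xist* had 7 to 28 counts in the mice numbered 1 of each genotype and 8578 to 18335 in all others, so that the genotypes are alike in this respect.

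In *Atg7*-KO livers all 4 fetal and tumour isoforms rose, and 2 of the 4 adult isoforms, *Pck1* and *G6pc*, fell (edgeR). *Pklr* and *Fbp1* did not pass the test. Of all genes tested, 21.6% were called higher and 22.1% lower in this comparison. The median log2 fold change was 1.86 for the fetal and tumour isoforms and −1.28 for the adult ones, against −0.032 for all genes tested.

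**Figure D1:**
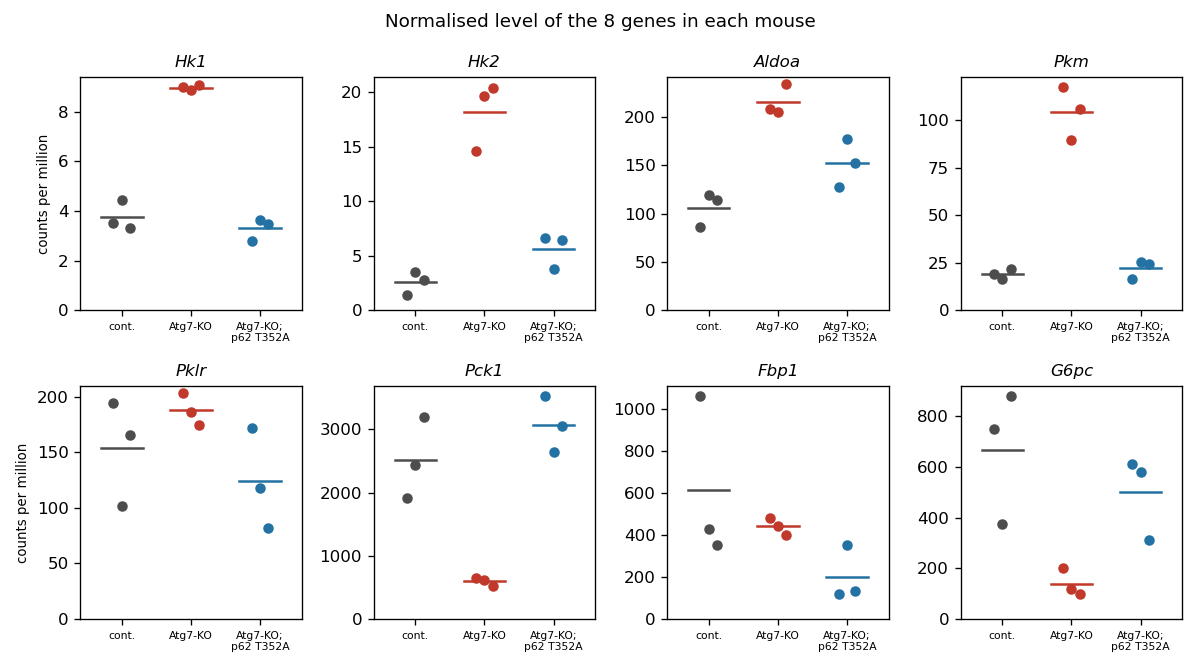
Level of the 8 genes in each mouse, in CPM after TMM scaling on a linear axis that starts at 0, with points for the 3 mice of a genotype and a line for their mean. *Hk1*, *Hk2*, *Aldoa* and *Pkm* stand higher in every *Atg7*-KO mouse than in any other mouse, and *Pck1* and *G6pc* lower.

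*Hk2* encodes the hexokinase that tumours use most and that binds to mitochondria. It was 1.38, 3.50 and 2.75 CPM in the cont. mice, 14.6, 19.6 and 20.4 CPM in the *Atg7*-KO mice and 6.64, 3.78 and 6.40 CPM in the compound mutant mice. The 3 genotypes did not overlap, and the *Atg7*-KO mice were the highest. The log2 fold change in *Atg7*-KO was 2.87 ± 0.36 (SE; adjusted p = 0.000269 in edgeR), a rise of 7.33-fold and the largest among the 8 genes.

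*Hk1* encodes the hexokinase of brain and red cells. It was 3.50, 4.44 and 3.30 CPM in cont., 9.00, 8.88 and 9.09 CPM in *Atg7*-KO and 2.78, 3.64 and 3.46 CPM in compound mutant mice. The *Atg7*-KO mice stood apart, and the other genotypes overlapped. Its rise in *Atg7*-KO was 1.26 ± 0.21 on the log2 scale (adjusted p = 0.00116 in edgeR).

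*Pkm* was 19.2, 16.4 and 21.8 CPM in cont., 118, 89.8 and 106 CPM in *Atg7*-KO and 16.3, 25.6 and 24.2 CPM in compound mutant mice. Again the *Atg7*-KO mice were apart from all others, which overlapped. The log2 fold change in *Atg7*-KO was 2.45 ± 0.22, or 5.47-fold, and it had the smallest adjusted p of the 8 genes (5.43e-05 in edgeR).

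*Aldoa* was 85.8, 119 and 114 CPM in cont., 208, 206 and 234 CPM in *Atg7*-KO and 128, 178 and 153 CPM in compound mutant mice. The 3 genotypes did not overlap, with compound mutant in between. The rise in *Atg7*-KO was 1.02 ± 0.20 on the log2 scale (adjusted p = 0.00258 in edgeR), the smallest of the 4.

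*Pck1*, which makes phosphoenolpyruvate from oxaloacetate and is induced in fasting, was 1918, 2434 and 3193 CPM in cont., 649.7, 615 and 524 CPM in *Atg7*-KO and 3535, 2637 and 3063 CPM in compound mutant mice. Every *Atg7*-KO mouse was under the lowest mouse of the other genotypes, which overlapped. In *Atg7*-KO it changed by a log2 fold of −2.08 ± 0.25 (adjusted p = 0.000223 in edgeR), a fall of 4.22-fold.

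*G6pc* was 751, 374 and 880.2 CPM in cont., 200.4, 118 and 99.9 CPM in *Atg7*-KO and 613, 582 and 310.4 CPM in compound mutant mice. The *Atg7*-KO mice were again the lowest, though the cont. mice spread more than in *Pck1*. It fell by 2.26 ± 0.41 on the log2 scale in *Atg7*-KO (adjusted p = 0.00196 in edgeR), 4.80-fold. Both of these genes carry the TTACGTNA motif printed in capitals above, a pattern that follows the element of *Pck1*. A link between the motif and the fall was not tested.

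*Fbp1* followed another order. It was 1059.8, 430.4 and 352.3 CPM in cont., 479, 444 and 400.0 CPM in *Atg7*-KO and 118, 353 and 133 CPM in compound mutant mice. The *Atg7*-KO mice lay inside the range of the cont. mice, whose highest value is that of cont. mouse 1, and the compound mutant mice were the lowest, with the highest of them level with the lowest cont. mouse. The log2 fold change in *Atg7*-KO was −0.48 ± 0.49 (adjusted p = 0.447), and without cont. mouse 1 it was 0.17 (adjusted p = 0.732, both in edgeR).

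*Pklr* was 194, 102 and 166 CPM in cont., 203, 186 and 174 CPM in *Atg7*-KO and 172, 117 and 81.9 CPM in compound mutant mice. All *Atg7*-KO mice were above the compound mutant mice, and the cont. mice overlapped with both. The log2 fold change of *Pklr* in *Atg7*-KO livers was 0.29 ± 0.30 (adjusted p = 0.458 in edgeR), with a 95% interval from −0.39 to 0.96, and without cont. mouse 2 it was −0.019.

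The second comparison, of compound mutant with *Atg7*-KO livers, shares the *Atg7*-KO mice with the first, so that its values are given for themselves. These genotypes also differ in their *Atg7* counts, as given above. Of all genes tested, 24.7% were called higher and 26.2% lower in it. *Hk1*, *Hk2* and *Pkm* were lower, *Pck1* and *G6pc* were higher, and *Aldoa*, *Pklr* and *Fbp1* were not called (edgeR). The median log2 fold change was −1.57 over the 4 fetal and tumour isoforms and 0.62 over the 4 adult ones, against 0.0021 over all genes tested.

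*Pkm* differed most among the former, by −2.25 ± 0.22 on the log2 scale (adjusted p = 8.42e-05 in edgeR). *Hk2* differed by −1.70 ± 0.33 (adjusted p = 0.00231) and *Hk1* by −1.44 ± 0.21 (adjusted p = 0.000446). *Aldoa* lay lower by 0.50 ± 0.19, a value of −0.50 with an adjusted p of 0.0516 and a fold of 1.41, so that neither threshold was passed, although no mouse of one genotype overlapped with the other.

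Among the adult isoforms, *Pck1* was higher by 2.37 ± 0.25 (adjusted p = 0.000118 in edgeR) and *G6pc* by 1.85 ± 0.40 (adjusted p = 0.00414). *Fbp1* had a log2 fold change of −1.13 ± 0.50 (adjusted p = 0.0787) and *Pklr* one of −0.60 ± 0.30 (adjusted p = 0.116). Both values are in the direction opposite to those of *Pck1* and *G6pc*, in the same mice. *Fbp1* was called lower by DESeq2 (−1.16, adjusted p = 0.0437), without cont. mouse 1 (−1.13, adjusted p = 0.0213) and without compound mutant mouse 2 (−1.81, adjusted p = 0.0139). *Pklr* was called lower without compound mutant mouse 1 (−0.91, adjusted p = 0.0388), and *Aldoa* without compound mutant mouse 2 (−0.62, adjusted p = 0.0362).

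In the third comparison, of compound mutant with cont. livers, none of the 8 genes was called by edgeR, whereas 6.25% of all genes tested were called higher and 5.34% lower. An unadjusted p under 0.05 was reached by 3 of the 8, *Hk2*, *Aldoa* and *Fbp1*, and DESeq2 called 2, *Hk2* and *Fbp1*. *Hk2* had a log2 fold change of 1.17 ± 0.36 (adjusted p = 0.0618), with no overlap between the mice, and *Aldoa* one of 0.52 ± 0.19 (adjusted p = 0.112), also without overlap. *Fbp1* had one of −1.61 ± 0.50 (adjusted p = 0.067), with 1 overlapping mouse, and it was called at −1.89 without cont. mouse 3 (adjusted p = 0.0451) and at −2.29 without compound mutant mouse 2 (adjusted p = 0.0319). Without cont. mouse 1 it was −0.96 and not called (adjusted p = 0.105). The remaining log2 fold changes were 0.21 ± 0.21 for *Pkm*, −0.18 ± 0.21 for *Hk1*, 0.29 ± 0.24 for *Pck1*, −0.41 ± 0.39 for *G6pc* and −0.32 ± 0.30 for *Pklr*, with adjusted p from 0.464 to 0.621. A p that misses the threshold does not show that these levels were the same. The 95% interval of *Pkm* reached from −0.27 to 0.68 and that of *G6pc* from −1.29 to 0.46.

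**Figure D2:**
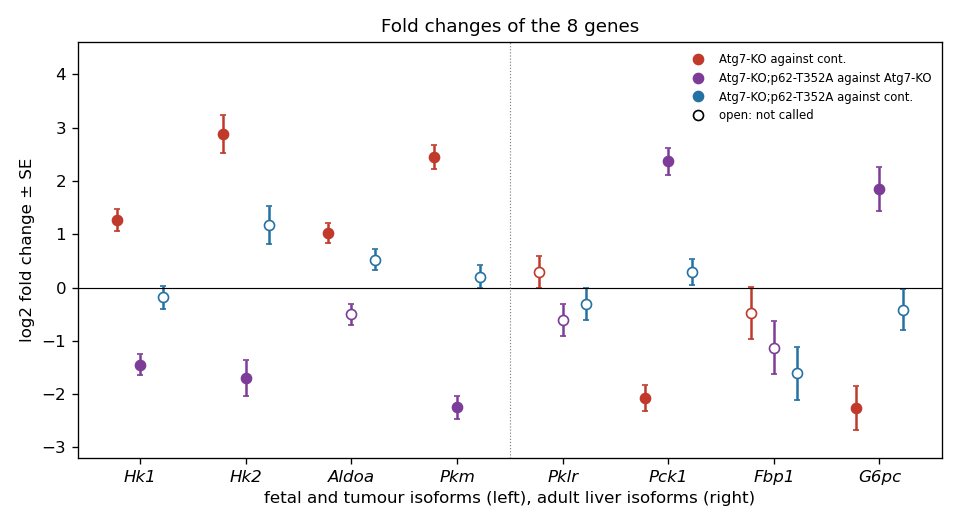
Log2 fold change of each of the 8 genes in the 3 comparisons (edgeR), with bars for the standard error and open points for genes not called. The filled red points of the 4 fetal and tumour isoforms lie between 1.02 and 2.87, those of *Pck1* and *G6pc* at −2.08 and −2.26, and all blue points, which compare compound mutant with cont., are open.

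The pyruvate kinase isoforms were then set against each other within each library, where library size plays no part. The log2 ratio of *Pkm* to *Pklr* counts was −3.34, −2.64 and −2.93 in cont., −0.79, −1.05 and −0.72 in *Atg7*-KO and −3.40, −2.20 and −1.76 in compound mutant mice. *Atg7*-KO mice had the highest ratios, 4.33-fold above cont. on average, and the other genotypes overlapped. The difference of the means was 2.11 between *Atg7*-KO and cont. and −1.60 between compound mutant and *Atg7*-KO mice.

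In both comparisons the *Atg7*-KO mice did not overlap with the mice of the other genotype. Each had a two-sided exact permutation p of 0.1, which is the smallest that 3 mice against 3 can give and remains 0.1 after Benjamini-Hochberg adjustment over the 2. The design cannot reach 0.05 with this test.

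**Figure D3:**
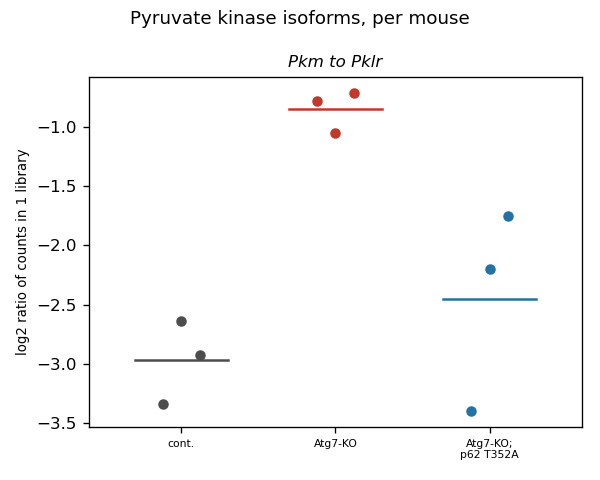
Log2 ratio of the counts of *Pkm* to those of *Pklr* in 1 library, for each mouse (points) with the genotype mean (line). The *Atg7*-KO mice, from −1.05 to −0.72, lie above all other mice.

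Counts of different genes were compared with each other only per kilobase of exon. The length is the union of the exons of all annotated transcripts, 8532 bp over 20 transcripts for *Hk1* and 5969 bp over 4 for *Hk2*. A union can be longer than the transcripts present, which lowers the value. Orders between genes on this scale therefore depend on the length used. On that scale *Pklr*, the adult form, was higher than *Pkm* in all 3 genotypes. In *Atg7*-KO livers *Pklr* was 58.1 ± 4.52 CPM per kilobase (SD, n = 3) and *Pkm* 20.9 ± 2.81, against 47.6 ± 14.6 and 3.82 ± 0.54 in cont. livers and 38.2 ± 14.0 and 4.403 ± 1.00 in compound mutant livers. *Hk2* was 3.05 ± 0.53 and *Hk1* 1.05 ± 0.012 CPM per kilobase in *Atg7*-KO livers, without overlap. With these lengths *Hk1* and *Hk2* did not differ beyond their spread in cont. livers, where they were 0.44 ± 0.072 and 0.43 ± 0.18. A shorter length for *Hk1* would place it higher. Among the gluconeogenic genes of cont. livers the order was *Pck1*, *Fbp1* and *G6pc*, at 733 ± 187, 361 ± 228 and 277 ± 109, and neighbours in this order overlapped. In *Atg7*-KO livers *Fbp1* was the highest of the 3, at 259 ± 23.2, followed by *Pck1* at 174 ± 19.0 and *G6pc* at 57.7 ± 22.2, and none of these overlapped.

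The genes were measured in whole liver, where more cells of a type and more RNA per cell cannot be told apart. Of the hepatocyte markers, 6 of 7 were lower in *Atg7*-KO than in cont. livers. Their summed level was 77439 to 130009 CPM in cont., 40540.0 to 43406 CPM in *Atg7*-KO and 119322 to 139468 CPM in compound mutant mice. Of the macrophage markers, 7 of 8 were higher in *Atg7*-KO, with a sum of 299 to 394 CPM in cont., 1261 to 1349 CPM in *Atg7*-KO and 226 to 457 CPM in compound mutant mice. Of the cholangiocyte markers, which include genes that injured hepatocytes and progenitor cells also express, 5 of 6 were higher, with sums of 33.4 to 51.3, 826 to 1023 and 181 to 266 CPM in the same order. In every mouse *Spp1* made up most of that sum (means of 33.8, 871 and 172 CPM). *Sox9*, 1 of the 6 genes, had means of 4.87, 25.7 and 30.8 CPM. It was not called between compound mutant and *Atg7*-KO livers (0.26, adjusted p = 0.406 in edgeR), and the mice of these genotypes overlapped. The stellate cell and fibroblast markers were higher in 6 of 7 cases (202 to 256, 877 to 1075 and 326 to 592 CPM), and the proliferation markers in 4 of 4 (4.64 to 9.89, 73.1 to 128 and 7.35 to 25.5 CPM). Of the endothelial markers 2 of 5 were higher and 1 lower (220.1 to 294, 215 to 225 and 123 to 153 CPM), and of the globin and red cell markers 2 of 5 were lower (518 to 1118, 314 to 378 and 558 to 890.4 CPM). Markers of skeletal muscle, where *Aldoa* and *Pkm* are abundant, summed to at most 5.77 CPM in any mouse, and adipocyte markers to at most 0.57 CPM. None of the 6 muscle or 3 adipocyte genes passed the filter on low counts.

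**Figure D4:**
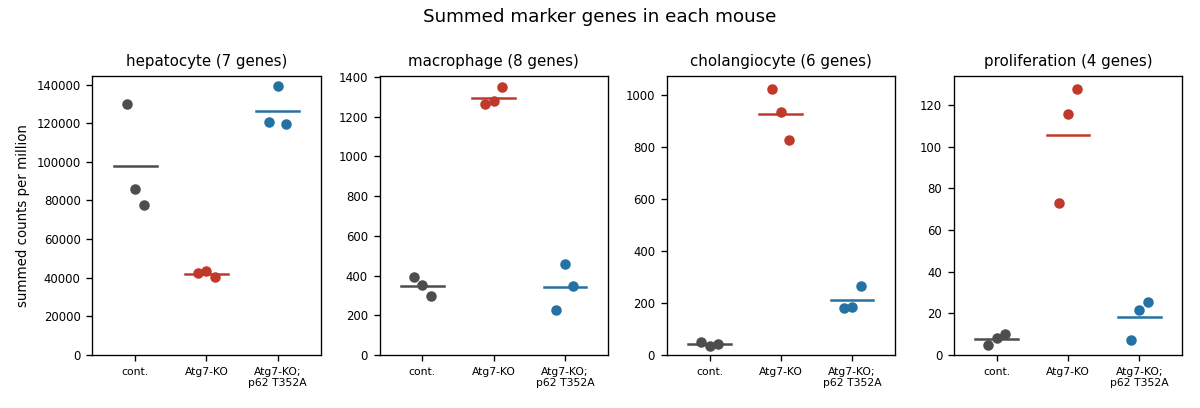
Summed CPM of the marker genes of 4 cell types or states in each mouse, on linear axes that start at 0, with a line for the genotype mean. The hepatocyte sum is lowest in the *Atg7*-KO mice, at 40540.0 to 43406 CPM, and the macrophage, cholangiocyte and proliferation sums are highest there. *Alb* makes up most of the hepatocyte sum and *Spp1* most of the cholangiocyte sum.

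The members were therefore also set against the marker sums of the same library, a scale chosen after the data were seen. In every mouse *Alb* made up most of the hepatocyte sum (means of 62573, 26107 and 79153 CPM in cont., *Atg7*-KO and compound mutant mice). A ratio to this sum follows *Alb* in large part and is not a level per hepatocyte. Per count of hepatocyte markers, the log2 level of *G6pc* was −7.84 to −6.46 in cont. and −8.66 to −7.73 in *Atg7*-KO mice, which overlap (difference −1.06, exact two-sided permutation p = 0.2). That of *Pck1* was −6.08 to −4.60 in cont. and −6.27 to −6.03 in *Atg7*-KO mice, which overlap as well (difference −0.88, exact permutation p = 0.2). On this scale *Pklr* (1.51) and *Fbp1* (0.87) were higher in every *Atg7*-KO mouse than in any cont. mouse, each with the smallest exact permutation p that is possible, 0.1. The fetal and tumour isoforms were also higher on it without overlap (*Hk1* 2.44, *Hk2* 4.08, *Pkm* 3.63, *Aldoa* 2.21), each at an exact permutation p of 0.1. Per count of macrophage markers, *Pkm* was −4.42 to −3.78 in cont. and −3.83 to −3.42 in *Atg7*-KO mice, which overlap (difference 0.54, exact permutation p = 0.2). *Hk2* remained higher in *Atg7*-KO without overlap (1.00), while *Hk1* (−0.64) and *Aldoa* (−0.87) were lower without overlap, each at an exact permutation p of 0.1. All adult isoforms were lower on the macrophage scale without overlap (*G6pc* −4.14, *Pck1* −3.96, *Fbp1* −2.21, *Pklr* −1.57), each at an exact permutation p of 0.1. Between compound mutant and *Atg7*-KO livers, *G6pc* per count of hepatocyte markers overlapped (difference 0.27, exact permutation p = 0.6), while *Pck1* (0.78) was higher and *Pklr* (−2.25) and *Fbp1* (−2.89) were lower in every compound mutant mouse, each at an exact permutation p of 0.1. Per count of macrophage markers, *Hk2* overlapped between these genotypes (difference 0.25, exact permutation p = 0.7), as did *Pkm* (difference −0.29, exact permutation p = 0.2). *Hk1* (0.53) and *Aldoa* (1.47) were higher without overlap on that scale, each at an exact permutation p of 0.1. All adult isoforms were higher on it without overlap (*Pck1* 4.34, *G6pc* 3.83, *Pklr* 1.31, *Fbp1* 0.66). Against the hepatocyte sum, the fetal and tumour isoforms were lower in every compound mutant mouse (*Hk1* −3.03, *Hk2* −3.30, *Pkm* −3.85, *Aldoa* −2.09). Each of these differences had an exact permutation p of 0.1. The part of these cell types in the changes of the 8 genes was not tested beyond these ratios.

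Around the 8 genes, 91 other genes of glucose metabolism were described in 6 lists, of which 88 were tested. In *Atg7*-KO livers 16 were higher and 26 lower than in cont., with a median log2 fold change of −0.32. In compound mutant against *Atg7*-KO livers 26 were higher and 20 lower, with a median of 0.077, and against cont. 1 was higher and 5 lower. The counts per list are read against the shares of all genes called, given above.

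**Figure D5:**
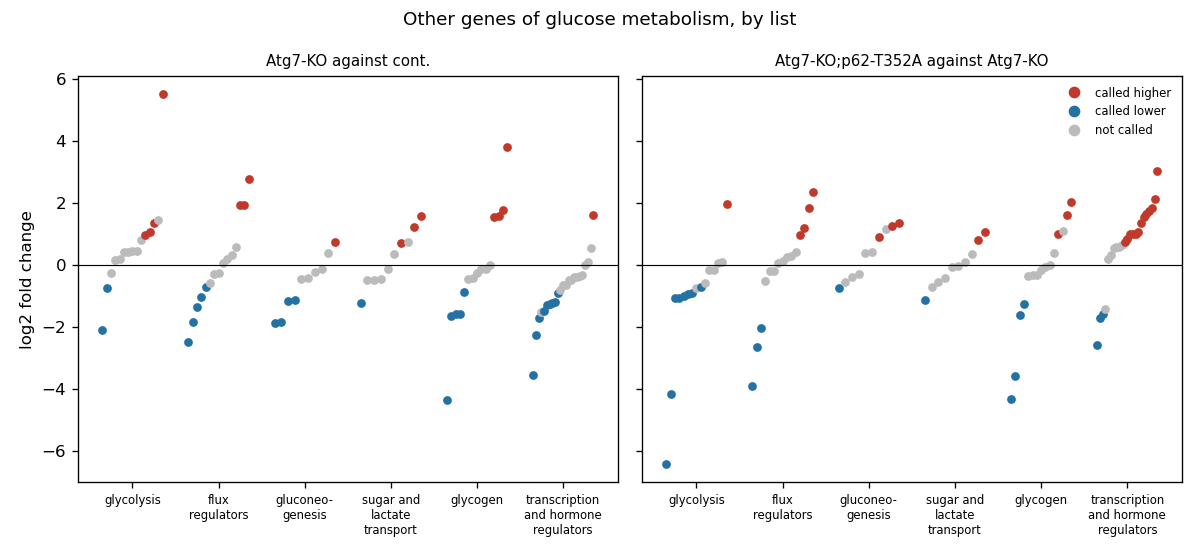
Log2 fold change (edgeR) of every tested gene of 6 lists, 1 point a gene, ordered by size within a list, for *Atg7*-KO against cont. (left) and compound mutant against *Atg7*-KO (right). Of the transcription and hormone regulators, 9 are called lower on the left and 13 higher on the right. The lowest glycolysis point on the right, at −6.42, is *Eno1*, which shares sequence with another gene.

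Of 15 other glycolytic genes tested, 4 were higher and 2 lower in *Atg7*-KO livers. *Hkdc1*, a hexokinase gene next to *Hk1* on chromosome 10, was 0.40, 0.095 and 0 CPM in cont., 10.5, 7.68 and 10.4 CPM in *Atg7*-KO and 0.50, 0.70 and 0.39 CPM in compound mutant mice. It was close to absent outside the *Atg7*-KO livers, where it was 1.86 ± 0.31 CPM per kilobase (SD, n = 3) and *Hk1* 1.05 ± 0.012. The order of these 2 values depends on the exon lengths used. Its log2 fold change was 5.49 ± 0.54 in *Atg7*-KO (adjusted p = 8.56e-05 in edgeR), and −4.15 ± 0.47 in compound mutant against *Atg7*-KO (adjusted p = 0.000153). *Pfkp*, the platelet form of phosphofructokinase, rose by 1.36 ± 0.26 in *Atg7*-KO (adjusted p = 0.00279). *Pfkm*, the muscle form of that enzyme, was 17.7, 11.4 and 16.4 CPM in cont. and 10.1, 8.34 and 8.87 CPM in *Atg7*-KO mice. It was called lower (−0.74 ± 0.24, adjusted p = 0.0308), a call that was lost without cont. mouse 3 or any 1 *Atg7*-KO mouse (adjusted p 0.0599 to 0.106), and with upper-quartile scaling (−0.63, adjusted p = 0.0632). *Eno3*, the muscle enolase, fell by 2.09 ± 0.61 (adjusted p = 0.0189), but it was 2.52 CPM in cont. mouse 1, below the *Atg7*-KO mice, against 21.0 and 17.5 CPM in the other cont. mice. This call was lost without cont. mouse 2 or 3 and without any 1 *Atg7*-KO mouse (adjusted p 0.0522 to 0.0618).

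*Eno1*, the common enolase, cannot be read alone, because 22.6% of its 75-base stretches also occur in *Eno1b*, a near-identical copy. The 2 genes together were 287 to 516 CPM in cont., 677 to 701 CPM in *Atg7*-KO and 197 to 401 CPM in compound mutant mice. *Eno1* held 91.4% to 93.2% of these counts in *Atg7*-KO, 19.97% to 89.95% in cont. and 2.22% to 2.81% in compound mutant mice. The log2 fold change of *Eno1* in compound mutant against cont. was −4.98 ± 0.69 (adjusted p = 0.00606 in edgeR), whereas that of the sum was −0.41 ± 0.30 (adjusted p = 0.402). Against *Atg7*-KO it was −6.42 ± 0.73 for *Eno1* and −1.28 ± 0.30 for the sum (adjusted p = 0.00593). In *Atg7*-KO against cont., the sum was higher by 0.87 ± 0.30 (adjusted p = 0.0373) and *Eno1* alone was not called (1.44 ± 0.59, adjusted p = 0.068).

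Among 15 regulators of glycolytic flux, 3 were higher and 5 lower in *Atg7*-KO livers, with a median of −0.28. *Pfkfb4*, whose enzyme makes fructose 2,6-bisphosphate, an activator of glycolysis, rose by 2.77 ± 0.31 (adjusted p = 0.00015 in edgeR). *Pdk3*, a kinase that inhibits pyruvate dehydrogenase, rose by 1.93 ± 0.45 (adjusted p = 0.00702), from a mean of 0.62 to 2.53 CPM. Its relatives *Pdk1* and *Pdk2*, at higher levels, fell from means of 80.8 to 31.8 CPM (adjusted p = 0.000591) and 131 to 79.3 CPM (adjusted p = 0.0161), and *Pdk4* was not called. Of the opposing phosphatases, *Pdp1* rose (1.92) and *Pdp2* fell (−1.03). *Gckr* fell by 2.50 ± 0.46 (adjusted p = 0.00216), and *Pfkfb1*, the liver form of the fructose 2,6-bisphosphate enzyme, fell by 1.84 ± 0.37 (adjusted p = 0.00314). *Pfkfb4* (−2.03), *Pdk3* (−3.92), *Gckr* (2.35) and *Pfkfb1* (1.82) were also called between compound mutant and *Atg7*-KO livers.

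Of 10 other gluconeogenic genes tested, 4 were lower and 1 higher in *Atg7*-KO livers, with a median of −0.45. *Got1* and *Gpt*, aminotransferases that feed carbon from amino acids, fell by 1.86 ± 0.46 (adjusted p = 0.00884 in edgeR) and 1.86 ± 0.26 (adjusted p = 0.000456). *Got1* was 893 CPM in cont. mouse 3 against 258 and 249 CPM in the other cont. mice, all above the *Atg7*-KO mice at 109 to 148 CPM. Without cont. mouse 3 the log2 fold change of *Got1* was −0.99, and the gene was still called. *Pck2*, the mitochondrial form of *Pck1*, was higher by 0.74 ± 0.27 (adjusted p = 0.0482), the direction opposite to that of *Pck1*, and this call was lost in 8 of 19 alternatives, among them the fits without cont. mouse 1 (0.54) or cont. mouse 2 (0.70) and without any 1 *Atg7*-KO mouse (0.63 to 0.86). *Slc37a4*, the transporter that brings glucose 6-phosphate to G6PC, was lower by a log2 fold change of −1.12 ± 0.18 (adjusted p = 0.00107) and higher by 0.91 ± 0.18 in compound mutant against *Atg7*-KO (adjusted p = 0.00246). It was singled out for this role after its values were seen.

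Of 10 transporters of sugars and lactate, 3 were higher and 1 lower in *Atg7*-KO livers. *Slc16a3* (MCT4), which exports lactate from glycolytic cells, rose by 1.57 ± 0.34 (adjusted p = 0.00508 in edgeR), from a mean of 0.59 to 1.78 CPM, and *Slc16a1* (MCT1) by 1.20 ± 0.27 (adjusted p = 0.00575). *Slc2a9*, a transporter of urate and hexoses, fell by 1.23 ± 0.19 (adjusted p = 0.000905). Of 15 genes of glycogen metabolism, 4 were higher and 5 lower. *Pygb*, the brain and fetal form of glycogen phosphorylase, was 5.62, 4.54 and 2.75 CPM in cont., 61.9, 58.6 and 62.9 CPM in *Atg7*-KO and 2.21, 3.22 and 3.66 CPM in compound mutant mice. The *Atg7*-KO mice stood far above the other 6, with log2 fold changes of 3.81 ± 0.28 against cont. (adjusted p = 2.16e-05) and −4.33 ± 0.29 for compound mutant against *Atg7*-KO (adjusted p = 1.95e-05).

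*Gbe1*, the glycogen branching enzyme, rose by 1.76 ± 0.39 in *Atg7*-KO (adjusted p = 0.0053 in edgeR), and *Gys2*, the liver glycogen synthase, fell by 1.65 ± 0.26 (adjusted p = 0.000918). In compound mutant against *Atg7*-KO livers *Gbe1* was lower by a log2 fold change of −3.57 ± 0.42 and *Gys2* higher by 0.98 ± 0.26. *Ppp1r3g*, which targets a phosphatase to glycogen, was called lower in *Atg7*-KO (−4.36 ± 1.60, adjusted p = 0.0478), a call that rests on 1 mouse. It was 164 CPM in cont. mouse 3 and 0.97 and 3.40 CPM in the other cont. mice, and without cont. mouse 3 its value was 0.36 (adjusted p = 0.764).

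Of 23 transcription and hormone regulators, 9 were lower and 1 higher in *Atg7*-KO livers, with a median of −0.66. In compound mutant against *Atg7*-KO livers 13 were higher and 3 lower, with a median of 0.85. *Mlxipl*, the gene of ChREBP, which binds the carbohydrate response element printed above for *Pklr*, was 293, 1534 and 1918 CPM in cont., 93.7, 118 and 110.0 CPM in *Atg7*-KO and 1109.6, 565 and 924 CPM in compound mutant mice. It fell by 3.54 ± 0.60 in *Atg7*-KO (adjusted p = 0.00137 in edgeR), while *Pklr* was not called. *Gcgr*, the glucagon receptor, was 231, 726 and 687 CPM in cont. and 113 to 115 CPM in the 3 *Atg7*-KO mice, a fall of 2.26 ± 0.38 (adjusted p = 0.00127). *Myc*, a driver of glycolytic genes in tumours, was called higher in *Atg7*-KO (1.61 ± 0.54, adjusted p = 0.0345), a call that was lost in 9 of 19 alternatives, among them the fits without cont. mouse 2 and without any 1 mouse of either other genotype (adjusted p 0.0503 to 0.107). Without cont. mouse 3 the log2 fold change of *Myc* was 2.78 (adjusted p = 0.000179).

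Factors known to act on the promoters of *Pck1* and *G6pc* were singled out after their values were seen. *Foxo1* was lower in *Atg7*-KO (−0.92 ± 0.23, adjusted p = 0.00896 in edgeR) and higher in compound mutant against *Atg7*-KO livers (1.55 ± 0.23, adjusted p = 0.000549). The coactivator gene *Ppargc1a* was not called in *Atg7*-KO (−0.80 ± 0.33, adjusted p = 0.0715) and was higher in compound mutant against *Atg7*-KO (1.00 ± 0.33, adjusted p = 0.0268), as was *Hnf4a* (−0.39 ± 0.20, adjusted p = 0.131, and 0.73 ± 0.20, adjusted p = 0.0119). The *Ppargc1a* call was lost without *Atg7*-KO mouse 2 or 3 and without compound mutant mouse 1 or 3 (adjusted p 0.0536 to 0.112), and without cont. mouse 1 it was called lower in *Atg7*-KO (−1.06, adjusted p = 0.00903). The *Hnf4a* call was lost without *Atg7*-KO mouse 1 (adjusted p = 0.0579). *Creb1*, the gene of a factor that binds cAMP response elements, was called in neither comparison (0.11 ± 0.20 and 0.19 ± 0.20, adjusted p = 0.683 and 0.442). Other regulators of the list did change. *Crtc2*, *Creb3l3*, *Cebpb* and *Klf15* were called lower in *Atg7*-KO (−1.72, −1.24, −1.31 and −1.47). In compound mutant against *Atg7*-KO livers they were called higher (1.06, 1.34, 1.82 and 1.65). *Foxo3* was not called in *Atg7*-KO (0.00086) and was lower in compound mutant against *Atg7*-KO (−2.57). *Nr3c1* and *Foxa2* were called in neither.

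Of 4 genes for factors that direct the splicing of *Pkm* to its M2 form, none was called in *Atg7*-KO against cont. by edgeR, and none had an unadjusted p under 0.05. In compound mutant against *Atg7*-KO livers *Ptbp1* (−0.79 ± 0.19, adjusted p = 0.00695) and *Hnrnpa1* (−0.68 ± 0.19, adjusted p = 0.0129) were lower. The *Hnrnpa1* call was lost without *Atg7*-KO mouse 3 (−0.56, adjusted p = 0.0637) or compound mutant mouse 1 (−0.57, adjusted p = 0.0542). The 2 genes were named after their values were seen.

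Over the 9 mice, the genes with the pattern most like that of each member were sought by Pearson's r of log2 CPM among 8503 genes with a mean of at least 10 CPM. The values are a description, since the mice share 3 genotypes and any gene that separates them correlates. *Pkm* was nearest to *Cd14* (r = 0.996) and *Tspan17* (0.992), *Hk1* to *H2-DMb1* (0.99) and *Lcp2* (0.989), *Hk2* to *Tuft1* (0.989) and *Plk2* (0.987), and *Aldoa* to *Mvp* (0.986) and *Aprt* (0.985). *Cd14*, *H2-DMb1* and *Lcp2* are known from myeloid or lymphoid cells. *Tspan17*, *Tuft1*, *Plk2*, *Mvp* and *Aprt* were not assigned to a cell type, and the cells that express the members were not tested. *Pck1* was nearest to *Smarcc2* and *Sfxn2* (both 0.99), *G6pc* to *Zfand1* (0.977) and *Qdpr* (0.975), and *Fbp1* to *Coasy* (0.993) and *Fam134c* (0.989). *Pklr* had the lowest leading value of the 8, with *Fasn*, the fatty acid synthase gene that ChREBP is also known to regulate, at 0.912 and *Smarcad1* at 0.885.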

How the data were processed

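Poly(A) RNA of liver was read by the authors in single-end runs of 75 bp on a NextSeq 500. Trim Galore, STAR with the mm10 genome and RSEM produced the counts (the submitters' processing notes and the study's methods). Versions, annotation and strand setting are not given in the sources used here. The study's methods name TRIzol and the labels a column kit (RNeasy) for extraction. The deposited table holds the authors' RSEM expected counts per gene, unscaled, with 1 column per mouse for 9 mice. These were rounded to whole numbers. Depth was 9671073 to 23285134 counts per mouse, which limits the precision of genes with few counts. The mice numbered 1 to 3 within a genotype are separate mice by their labels.

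Genes were kept by filterByExpr (13922 of 24411) and fitted in edgeR 4.0.16 (R 4.3.3) with TMM factors, 1 coefficient per genotype and the quasi-likelihood F test. A gene was called at an adjusted p under 0.05 (Benjamini-Hochberg over all tested genes) and a fold change over 1.5. Standard errors were derived from the F statistic, and 95% intervals use the t quantile at the degrees of freedom of the fit. The *Pkm* to *Pklr* ratio and the ratios to marker sums within a library are log2((count + 0.5)/(count + 0.5)), compared by exact two-sided permutation. Lengths are unions of GENCODE (vM21) exons. Steps were tested on simulated data.

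The members, lists and tests were chosen with earlier results of these data known. Genes named one by one were the 8 members, *Atg7*, *Sqstm1*, the 2 largest rises and falls called in *Atg7*-KO in each list, and the 2 genes most correlated with each member. Exceptions are named as such, or are marker genes and related genes set beside a result after the values were seen. The hepatocyte list holds 8 symbols, of which 7 were matched. Alternatives were DESeq2 1.42.0, its size factors in edgeR, upper-quartile scaling, genes kept without a filter or only with 10 counts or more in all mice, the 20 most counted genes left out, the replicate block, FDR alone, glmTreat, each mouse left out and the mice numbered 1 left out. For the ratio of *Pkm* to *Pklr* they were a pseudocount of 1, a scale per kilobase, the block and mice left out. The sum of *Eno1* and *Eno1b* and the ratios to marker sums were added after the data were seen. The 3 mice labelled with the *p62* allele but no Alb-*Cre* were not used here. Amino acid sequences were not used here. Results of 2 further genes of the glycolysis list, and ratios to them, are not reported here.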

Additional observations from a re-analysis of the deposited data

How the results depend on the processing

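Of the 6 members called in *Atg7*-KO against cont. and the 5 called in compound mutant against *Atg7*-KO, none lost its call or turned its direction in any of the 19 alternatives that gave a value. Without single mice, 6 members were called in the former and 5 to 7 in the latter comparison, where *Fbp1*, *Pklr* and *Aldoa* were gained as described above. Except for *Ppp1r3g*, given below, directions that turned were those of results not called. *Fbp1* in *Atg7*-KO against cont. was 0.17 without cont. mouse 1 and 0.11 without the mice numbered 1 (−0.78 to 0.17 over single mice left out). *Pklr* there was −0.019 without cont. mouse 2 (−0.019 to 0.49), and *Creb1* there was −0.028 without cont. mouse 2 and −0.0079 without *Atg7*-KO mouse 2 (−0.028 to 0.22). *Pfkm*, not called between compound mutant and *Atg7*-KO livers (0.049), was −0.090 with upper-quartile scaling, −0.029 with 10 counts or more in all mice and −0.18 to 0.21 without single mice (−0.012 without *Atg7*-KO mouse 2, −0.18 without compound mutant mouse 2). *Ppp1r3g*, called in *Atg7*-KO, turned to 0.36 without cont. mouse 3 (−4.94 to 0.36), and its uncalled value in compound mutant against *Atg7*-KO to −0.30 without compound mutant mouse 3. In compound mutant against cont., DESeq2 called 2 members in place of 0, and leaving out single mice gave 0 to 1. The pathway genes called there were 6, but 2 with glmTreat, 18 without the mice numbered 1 and 3 to 18 without single mice, the 18 being without cont. mouse 1 and the 3 without compound mutant mouse 2 or 3. In compound mutant against *Atg7*-KO they were 46, and 29 with glmTreat, which tests against the fold change of 1.5. The cause of the other differences was not tested. Between compound mutant and *Atg7*-KO livers the calls of *Slc16a3* (without *Atg7*-KO mouse 1 or 3 or compound mutant mouse 1), *Eno3* (without any 1 *Atg7*-KO mouse or compound mutant mouse 1) and *Sqstm1* (without *Atg7*-KO mouse 1 or 3 or compound mutant mouse 1 or 3) were lost. Upper-quartile scaling shifted the all-gene median between compound mutant and *Atg7*-KO livers from 0.0021 to −0.13 (log2) and that between *Atg7*-KO and cont. livers from −0.032 to 0.082, and *Aldoa* was called in the former comparison at −0.64 (adjusted p = 0.0206). Mice with the same number did not deviate together throughout, so that the numbers were not taken as pairs. The correlation of their deviations from the genotype means was above 0.1 in 6 of 9 pairs and ran from −0.20 to 0.32. Between the mice numbered 1, which had the low *Xist* counts, it was 0.27, 0.14 and 0.26. Leaving out the mice numbered 1 therefore leaves only mice with high *Xist* counts. In a fit with a replicate block for mouse numbers, 6, 5 and 0 members and 41, 48 and 6 pathway genes were called in the 3 comparisons. With it, *Atg7*-KO against cont. lost the calls of *Pfkm* (adjusted p = 0.0536) and *Ppp1r3g* (−2.06, adjusted p = 0.226), and *Got1* was called in compound mutant against *Atg7*-KO (1.20, adjusted p = 0.0473). With the block, the sign-flip test of the ratio of *Pkm* to *Pklr* gave in each comparison an exact permutation p of 0.25, the smallest that 3 pairs allow.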

Other observations

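Some genes of glucose metabolism and its regulation varied between the cont. mice themselves. Cont. mouse 3 had 893 CPM of *Got1*, 164 CPM of *Ppp1r3g* and 17.5 CPM of *Myc*, where the other cont. mice had 258 and 249, 0.97 and 3.40, and 3.09 and 4.07 CPM. Cont. mouse 1 had the highest *Fbp1* (1059.8 CPM) and the lowest *Mlxipl* (293 CPM) and *Gckr* (118 CPM) of the cont. mice, with 450.2 and 540.1 CPM of *Gckr* in the others. The 3 *Atg7*-KO mice lay closer together, with 62.7 to 68.9 CPM of *Gckr* and 113 to 115 CPM of *Gcgr*.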
